A study of Mus musculus with 10 samples.

Results

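The endothelial cell genes examined here are 10 genes that mark the inner lining of blood vessels, namely Kdr, Flt1, Emcn, Cdh5, Pecam1, Tek, Tie1, Esam, Eng and Egfl7. They were measured by 17 probe sets, those whose platform symbol is one of these genes alone, out of 22690 on the Affymetrix mouse 430A GeneChip. A probe set is a group of short oligonucleotides that together read 1 transcript. RNA came from the jejunum (the small intestine between duodenum and ileum) of male mice at postnatal day 30. Per the labels, 5 arrays carried RNA of Klf9-/- mice and 5 that of wild type mice, and per the design text an array stands for a single mouse, whereas the protocol for labelling mentions pooled RNA. Klf9 encodes a Kruppel-like transcription factor that binds GC-rich DNA through zinc fingers. The cells in which Klf9 was lost, the mutated part of the gene and the strain are not given in the sources used here. Knockout replicate 1 was grouped by its title, as its characteristic names both genotypes. The comparison asks how endothelial transcripts stand in jejunum without Klf9. No endothelial probe set passed the test between the genotypes (0% of all probe sets tested did). Of the 10 genes, 9 had a lower mean log2 signal in knockout, where 47.5% of all genes tested were lower, and the median log2 difference over the 10 genes was -0.22.

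Endothelial cells line every blood vessel, and in a villus they form the capillary net below the epithelium that takes up absorbed sugars and amino acids. Their growth and survival depend on vascular endothelial growth factor (VEGF), which is read by the receptor tyrosine kinases Kdr and Flt1, and on angiopoietins, which are read by Tek with its relative Tie1. They are held together by junction proteins such as Cdh5, Pecam1 and Esam. In RNA of whole tissue, fewer endothelial cells and less of a transcript per cell cannot be told apart.

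A pair of arrays goes against its labels in the level of Klf9 itself. Signals are the deposited MAS 5.0 intensities, scaled so that the trimmed mean of each array is 500, and a log2 difference is the mean of log2(signal + 50) in knockout minus that in wild type. The brightest Klf9 probe set had a scaled signal of 944 on knockout replicate 1, against 551 on wild type replicate 1, while the other 4 knockout arrays lay below all other wild type arrays. Every direction given here rests on the labels, and the main results are given with all arrays and without this pair. Among all 13583 probe sets in the limma fit, an adjusted p under 0.05 was reached by 0 (0%), while 1073 (7.9%) had an unadjusted p under 0.05. Adjusted p was under 0.05 for 9 probe sets (0.0663%) without both arrays labelled replicate 1. None of these 9 belongs to the endothelial genes. With 5 arrays a group, the number of arrays sets the precision.

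Of the 10 endothelial genes, 7 had a probe set above the limit on low signal used for all probe sets, which was a mean scaled signal of 123 over all arrays. Flt1, Tek and Tie1 did not, and were kept in the fit all the same. Of the 17 probe sets, 9 lay above the limit. The signal of Tie1 was at most 45.5 on any array and its mean stood at the 9.46th percentile of all probe sets, so that this marker was scarcely measured. The other 9 genes had mean signals of 92.9 to 372 on their brightest probe sets, the ones used for each gene unless another is named.

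Kdr, Emcn and Tek were the genes with the lowest p between the groups, and Kdr with Tek and Emcn with Tek were the pairs of highest correlation over arrays. Their entries in the RefSeq promoter table (GRCm38.p6) are therefore shown, windows of 300 bases placed from 250 before to 50 after a start that need not be the outer end of the gene. The Kdr window lies wholly inside the annotated span of Kdr, the Tek window has 47 bases before that span and 253 inside it, and the Emcn window has 234 before and 66 inside. Capitals mark CCGGAA and AGGAAG, cores that ETS factors of endothelial cells bind, GGGCGG, the GC box bound by Sp and Kruppel-like factors, and CACCC, bound by several Kruppel-like factors, each on either strand, and no match overlaps another.
Kdr, chr5:75978406-75978705, minus strand: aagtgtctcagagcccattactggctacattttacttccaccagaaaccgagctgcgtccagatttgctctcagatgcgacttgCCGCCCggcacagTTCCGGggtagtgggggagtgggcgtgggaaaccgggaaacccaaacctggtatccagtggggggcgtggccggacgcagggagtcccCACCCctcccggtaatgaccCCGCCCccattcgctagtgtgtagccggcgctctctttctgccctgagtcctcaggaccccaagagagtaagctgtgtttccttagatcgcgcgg
Emcn, chr3:137340828-137341127, plus strand: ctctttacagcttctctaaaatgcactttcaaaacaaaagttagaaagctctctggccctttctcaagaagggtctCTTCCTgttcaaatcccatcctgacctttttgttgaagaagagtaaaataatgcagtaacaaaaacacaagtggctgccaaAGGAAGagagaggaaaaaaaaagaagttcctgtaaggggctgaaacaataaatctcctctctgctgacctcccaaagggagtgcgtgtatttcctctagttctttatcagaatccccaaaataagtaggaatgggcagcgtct
Tek, chr4:94739039-94739338, plus strand: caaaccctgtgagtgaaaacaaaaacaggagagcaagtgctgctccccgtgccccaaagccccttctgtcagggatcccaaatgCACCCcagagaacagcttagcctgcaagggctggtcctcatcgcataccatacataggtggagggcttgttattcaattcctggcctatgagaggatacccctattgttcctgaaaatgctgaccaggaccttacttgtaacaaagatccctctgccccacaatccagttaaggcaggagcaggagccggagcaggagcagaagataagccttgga

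Kdr had both kinds of element in this window, with 1 CCGGAA, 2 GC boxes and 1 CACCC. Emcn had 2 AGGAAG and none of the others, and Tek had 1 CACCC alone. The table has windows for 7 of the 10 genes (9 windows, as Egfl7 has 3). Among these 9, AGGAAG stood in 6, CCGGAA in 1, the GC box in 3 and CACCC in 6. Over all 32851 windows of the same table the shares were 35.4%, 14.9%, 35.7% and 57.5%. A match describes these letters only and was not set against binding of any factor.

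Of the VEGF receptors, Kdr, the main signalling receptor for VEGF, had scaled signals of 275.9, 301.4, 237.5, 258.2 and 181.4 on knockout replicates 1 to 5 and of 290.2, 308.2, 367.2, 347.4 and 297.4 on wild type replicates 1 to 5. Of the 5 knockout arrays, 4 lay below every wild type array, and only knockout replicate 2 reached into the wild type range. The mean was 251 ± 45.4 in knockout and 322 ± 33.5 in wild type (SD, n = 5 each). The log2 difference was -0.32 ± 0.12 (SE), a ratio of 0.803 in signal plus 50, and did not pass the threshold of limma (adjusted p = 0.557). An exact two-sided permutation test of the 252 ways to draw 5 of 10 arrays gave p = 0.0238, where 0.00794 is the smallest p possible. Without both arrays labelled replicate 1 the difference was -0.38.

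Flt1, which binds VEGF tightly and holds it away from Kdr, gave no common picture over its 3 probe sets. Its brightest, 1451756_at, had 220.7, 127.6, 67.9, 65.4 and 35.0 on knockout replicates 1 to 5, and 89.5, 185.6, 90.4, 80.5 and 64.2 on wild type replicates 1 to 5. The knockout range enclosed the wild type range. The log2 difference was -0.06 ± 0.28 (SE, limma adjusted p = 0.978), and it was 0.12 without knockout replicate 5, 0.11 without wild type replicate 2 and -0.32 without both arrays labelled replicate 1. The other probe sets, 1454037_a_at and 1419300_at, differed by -0.06 ± 0.15 and 0.17 ± 0.19. Across the 10 arrays the log2 values of 1451756_at had Pearson r of -0.46 and 0.48 with these other probe sets, which had r = -0.41 with each other.

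Of the angiopoietin receptors, Tek (Tie2), which angiopoietins bind, was dim. It read 77.1, 83.2, 90.2, 96.1 and 49.7 on knockout replicates 1 to 5 and 110.4, 103.2, 125.2, 112.8 and 81.8 on wild type replicates 1 to 5. Of the 5 wild type arrays, 4 lay above every knockout array, and wild type replicate 5 lay among the knockout ones. The log2 difference of -0.28 ± 0.14 (SE) did not pass (limma adjusted p = 0.639, exact permutation p = 0.0397). It was -0.27 without both arrays labelled replicate 1. Tie1, a relative of Tek with no high-affinity ligand of its own, read 5.998 to 15.6 on knockout arrays and 3.60 to 45.5 on wild type arrays. Its log2 difference of -0.27 ± 0.18 (adjusted p = 0.736) came from signals smaller than the 50 added before taking logs.

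Among the junction genes, Cdh5 (VE-cadherin), the cadherin of endothelial adherens junctions, had signals of 150.0, 125.5, 133.2, 174.3 and 207.9 on knockout replicates 1 to 5 and of 173.9, 211.3, 160.1, 170.7 and 314.7 on wild type replicates 1 to 5. Replicate 5 was the highest of its group in both. The log2 difference was -0.28 ± 0.16 (SE, limma adjusted p = 0.687, exact permutation p = 0.151). It was -0.15 without wild type replicate 5. A dimmer Cdh5 probe set, 1422047_at, differed by -0.30 ± 0.19 and had a Pearson r of 0.54 with the first over the 10 arrays. Cdh5 was the gene with several probe sets whose probe sets all had the same sign.

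Pecam1 (CD31), an adhesion molecule of endothelial cell borders that platelets and leukocytes also carry, read 164.0, 115.5, 179.6, 168.1 and 124.7 on knockout replicates 1 to 5 and 191.8, 185.7, 171.5, 156.5 and 163.0 on wild type replicates 1 to 5. Its log2 difference was -0.17 ± 0.12 (SE, limma adjusted p = 0.758), with knockout replicates 2 and 5 below all wild type arrays and the other 3 among them. Esam, an adhesion molecule of endothelial tight junctions and platelets, was the 1 gene with a higher mean log2 signal in knockout. Its mean signal was 385 ± 50.8 in knockout and 360 ± 32.4 in wild type (SD, n = 5 each), a log2 difference of 0.08 ± 0.11 (SE, adjusted p = 0.89). Without both arrays labelled replicate 1 it was -0.00060.

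Emcn (endomucin), a mucin-like glycoprotein of capillaries and veins, had signals of 186.6, 147.1, 152.1, 146.7 and 98.4 on knockout replicates 1 to 5 and of 231.8, 218.4, 198.1, 161.8 and 152.5 on wild type replicates 1 to 5. All knockout arrays but replicate 1 lay below all wild type arrays. The log2 difference was -0.31 ± 0.14 (SE) and did not pass (limma adjusted p = 0.627, exact permutation p = 0.0476). It was -0.32 without both arrays labelled replicate 1. Eng (endoglin), a co-receptor for ligands of the transforming growth factor beta family, had 164 to 301 in knockout and 182 to 310 in wild type. Its log2 difference was -0.09 ± 0.17 (adjusted p = 0.934). A second, dim Eng probe set differed by 0.10 ± 0.20.

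Egfl7, a secreted protein of the vessel wall, was read by 4 probe sets that did not give 1 answer. The brightest, 1435823_x_at, had nearly equal means of 261 ± 36.6 in knockout and 262 ± 23.6 in wild type (SD, n = 5 each), a log2 difference of -0.01 ± 0.11 (SE). On 1451427_a_at and 1451428_x_at the differences were 0.23 ± 0.22 and -0.01 ± 0.15. The dimmest, 1421335_a_at, had 54.5, 97.3, 62.2, 109.9 and 50.3 on knockout replicates 1 to 5 and 88.8, 159.8, 135.0, 124.6 and 107.5 on wild type replicates 1 to 5. Of the knockout arrays 3 lay below all wild type arrays and 3 wild type arrays above all knockout arrays. This log2 difference, -0.48 ± 0.16, was the largest of all 17 probe sets and had the lowest adjusted p among them (limma adjusted p = 0.493, exact permutation p = 0.0397). It was -0.50 without both arrays labelled replicate 1. The suffixes a and x mark probe sets that read several transcripts of a gene or share probes with other sequences.

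**Figure D1:**
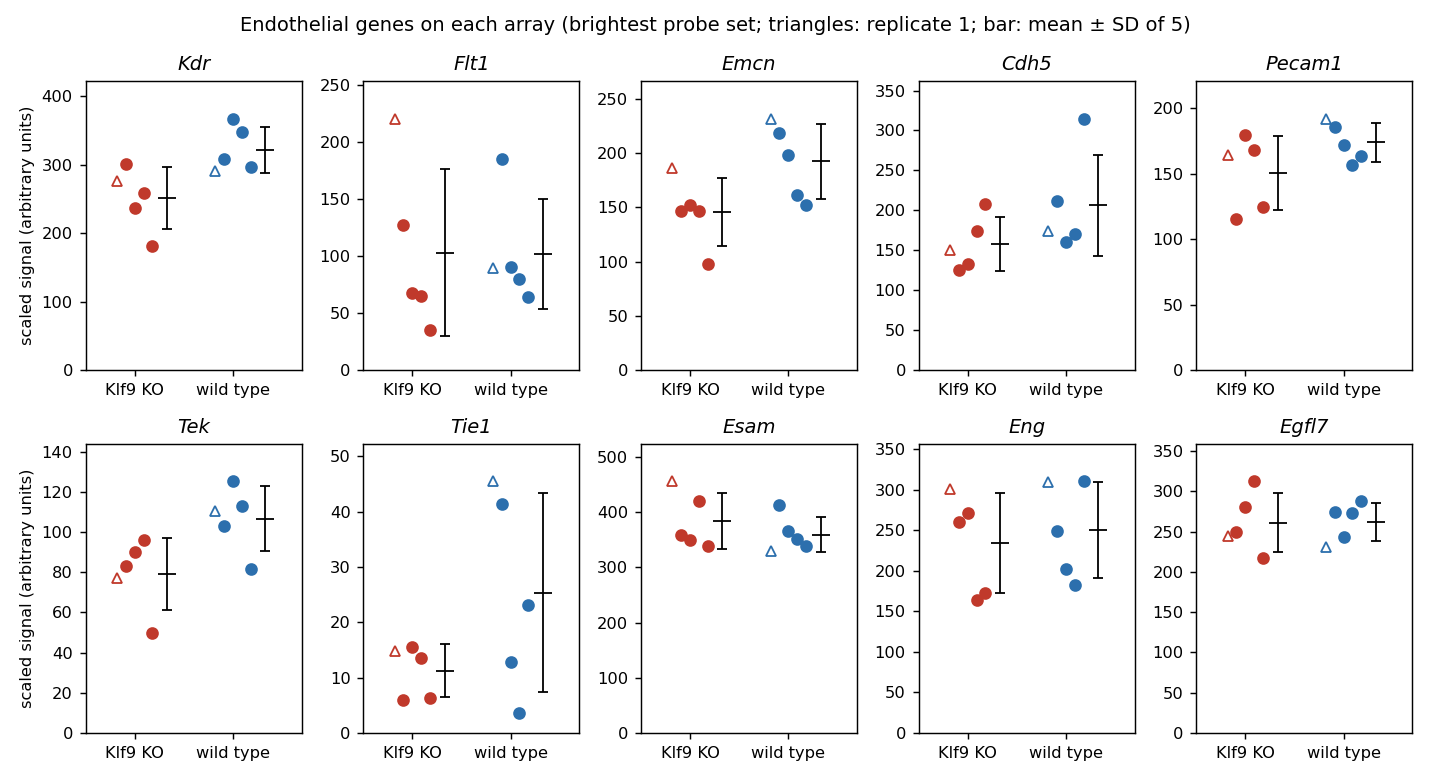
Scaled signal (arbitrary units, linear axis from 0) of the brightest probe set of each endothelial gene on every array, Klf9 knockout on the left and wild type on the right of each panel. Points are arrays, open triangles are the arrays labelled replicate 1, and the bar is the mean ± SD of 5. Kdr lies between 181 and 301 in knockout and between 290 and 367 in wild type, and every gene shows overlap between the groups.

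Tested singly, no endothelial probe set passed. Of 17 probe sets, 0 had an adjusted p under 0.05. An unadjusted limma p under 0.05 was reached by 3 (Kdr, Emcn and the dimmest of Egfl7), all lower in knockout. Of all probe sets tested, 7.9% had such a p and 4.25% were also lower. That Egfl7 probe set, with a mean signal of 99.0, lay below the limit on low signal. The limit was not applied to the 17, while every other probe set tested lay above it. By gene, 2 of 10 (Kdr and Emcn) were lower with an unadjusted p under 0.05, against 3.28% of all genes. The groups did not overlap for 0 of the 17 probe sets, and over all probe sets tested 1.55% were without overlap, 0.788% with knockout lower. By direction, 13 of 17 probe sets were lower in knockout and 4 higher, while 51.4% of all probe sets tested were lower.

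Counted by gene, 9 of 10 were lower in knockout, 47.5% of the 8293 genes tested being lower by any amount. The median log2 difference was -0.22 over the 10 genes and 0.01 over all genes tested. When the probe sets of a gene were averaged, 7 of 10 were lower and the median was again -0.22. Without both arrays labelled replicate 1 all 10 were lower, 1 of them (Esam) by almost nothing, with a median of -0.23, against 49.7% of all genes and a median of 0.0011. These counts are a description, as the genes were chosen with earlier results of these data known.

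Arrays were grouped into runs by their recorded hybridization times, and the difference was taken within each run. These groups are called wash runs here, a name inferred from the times and not given by the labels. Run 1 held 2 arrays of each label, among them both arrays labelled replicate 1. In it, 7 of 10 genes were lower in knockout with a median of -0.16. In run 2, with 2 arrays of each label, 5 of 10 were lower and the median was -0.01. In run 3, with 1 array of each, 9 of 10 were lower and the median was -0.41. Over all genes tested, 44.5%, 48.8% and 51.4% were lower in the 3 runs. Kdr differed by -0.04, -0.45 and -0.59 in runs 1, 2 and 3. Emcn differed by -0.35, -0.20 and -0.45, Tek by -0.27, -0.24 and -0.40 and Cdh5 by -0.37, -0.09 and -0.50. On their brightest probe sets these genes were lower in knockout in every run, and none of the other endothelial genes was. Among the dimmer probe sets, Egfl7 1421335_a_at was also lower in every run (-0.46, -0.42 and -0.65). So were Flt1 1454037_a_at (-0.02, -0.05 and -0.16) and Cdh5 1422047_at (-0.24, -0.23 and -0.55). Kdr, Emcn and Tek were the genes of lowest p over these same arrays, so their agreement between runs is no separate evidence. The share of all genes lower in every run was not counted. Fluidics modules 1 and 2 held knockout arrays alone and module 3 wild type arrays alone. Over all arrays, a difference between the labels therefore cannot be told apart from one between modules. Module 4 was the only module with both labels (1 knockout and 2 wild type arrays). Within it, 9 of 10 genes were lower with a median of -0.33, while 52.9% of all genes tested were lower. That comparison sets knockout replicate 5, the array with the lowest mean over the 10 genes, against wild type replicates 2 and 4, and replicate 2 has the highest.

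A pair of arrays stood at the ends of the range. Knockout replicate 5, the knockout array of run 3 and of module 4, was the lowest of all 10 arrays for 5 of the 10 genes and below the gene's mean for 9, whereas it was the lowest for 9.72% and below the mean for 52.9% of all genes tested. Wild type replicate 2 lay above the gene's mean for 10 of 10 genes, and for 46.8% of all genes tested. The mean log2 value over the 10 genes was 7.83, 7.64, 7.66, 7.66 and 7.38 on knockout replicates 1 to 5 and 7.85, 7.95, 7.76, 7.68 and 7.79 on wild type replicates 1 to 5. Without knockout replicate 5, 7 of 10 genes were lower and the median was -0.16, and without wild type replicate 2, 7 of 10 were lower and the median was -0.17. Leaving out knockout replicate 4 likewise left 7.

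**Figure D2:**
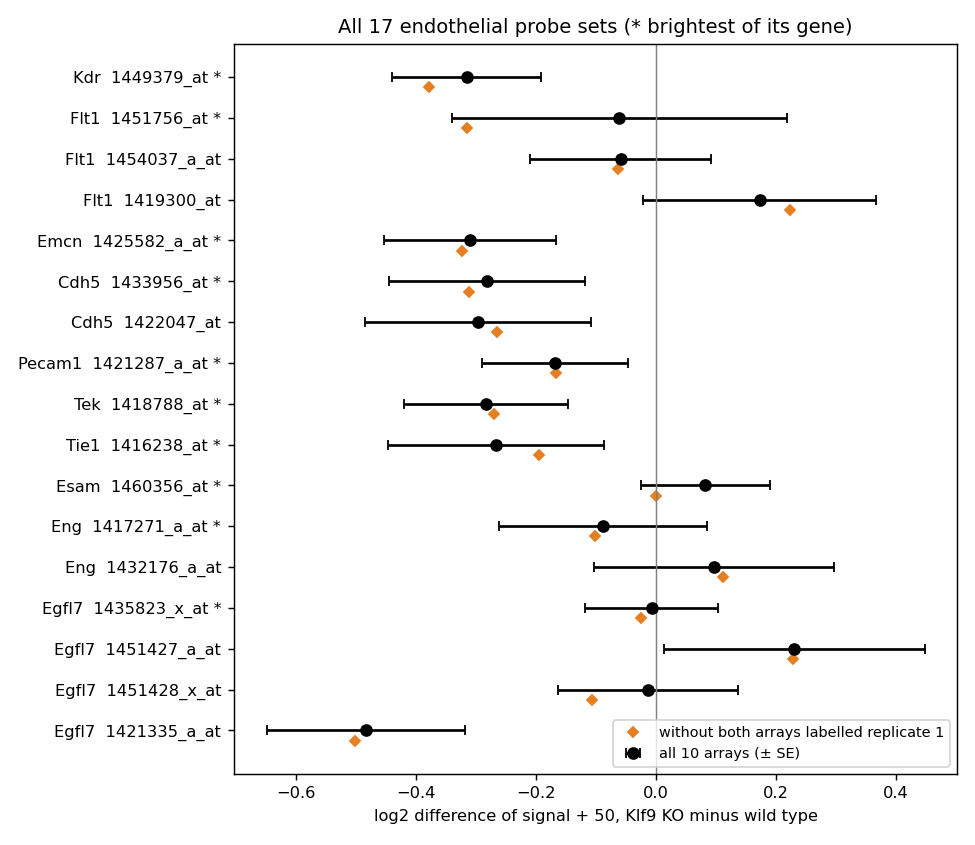
Log2 difference of signal plus 50, Klf9 knockout minus wild type, for all 17 endothelial probe sets (vertical axis). Black points with bars are the limma estimate ± SE over all 10 arrays, and orange diamonds are the estimate without both arrays labelled replicate 1. Cdh5 stands at -0.28 and -0.30 on its 2 probe sets, while Egfl7 runs from -0.48 to 0.23 on its 4.

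Whether these genes moved together over the arrays was examined for their 45 pairs. The median Pearson r was 0.24, with 37 of 45 pairs above 0, while over all pairs of tested genes the median was 0.01 with 51.1% above 0, and 27.6% of all gene pairs had an r above 0.24. Of the 45 pairs, 8 had an unadjusted permutation p under 0.05 and 0 an adjusted one (100000 resamples, Benjamini-Hochberg over 45 pairs, smallest adjusted p = 0.165). All pairs share the same 10 arrays and their scaling. On deviations from the group means the median r was 0.27, on deviations from the wash run means 0.30, and without both arrays labelled replicate 1 it was 0.36. Without the 2 arrays farthest from the median of the first gene of each pair it was 0.08.

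Emcn was the gene closest to the rest, with a median r of 0.65 with the other 9 genes. Kdr and Tek formed the closest pair (r = 0.84, permutation p = 0.0037, Spearman rho = 0.70, permutation p = 0.031, n = 10 arrays; adjusted p = 0.165 and 0.501). Their r was 0.72 on deviations from group means and 0.83 on deviations from wash run means, but 0.41 without knockout replicate 5 and wild type replicate 3, the arrays farthest from the median of Kdr. Emcn and Tek had r = 0.77 (permutation p = 0.011, rho = 0.59 with permutation p = 0.080, n = 10), and 0.42 without the 2 farthest arrays. Pecam1 and Tie1 had r = 0.72 (permutation p = 0.023, rho = 0.79 with permutation p = 0.0085, n = 10), and 0.84 without the 2 farthest arrays. None of these pairs passed after adjustment over the 45 pairs.

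Cdh5 stood apart from the other endothelial genes. Its median r with them was -0.06, and on deviations from group means it had r = -0.77 with Tek, -0.62 with Kdr and -0.57 with Emcn. On deviations from the wash run means the same 3 pairs had r = 0.75, 0.57 and 0.77. The sign thus depended on whether genotype or wash run was taken out. In run 3 the 2 arrays had the highest Cdh5 signals of their groups (208 in knockout and 315 in wild type), while Tek and Emcn had there the lowest of their groups.

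**Figure D3:**
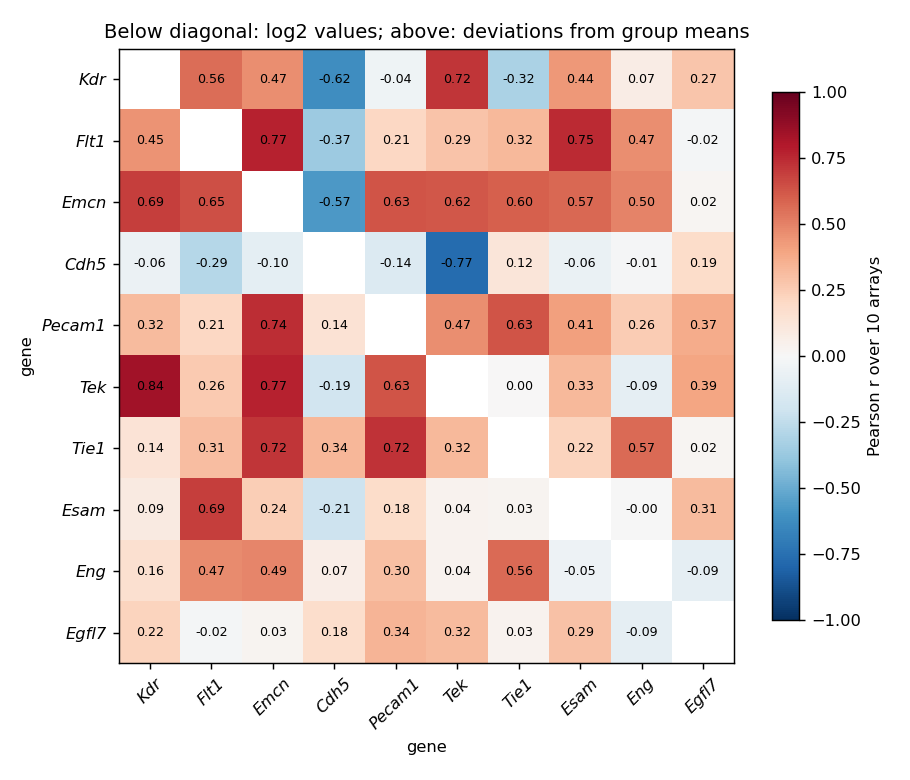
Pearson r over the 10 arrays for each pair of endothelial genes, from -1 (blue) to 1 (red). Squares below the diagonal are for log2 values and those above it for deviations from the group means. Kdr and Tek have the highest value below the diagonal (0.84), and the Cdh5 row and column hold the lowest ones above it (-0.77 with Tek).

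The genes outside the list that were most like its mean over the 10 arrays, on deviations from group means, were in none of the vessel lists used here. Rgs2, a regulator of G protein signalling, had the highest r (0.94), followed by Tmem189 (0.92), Tbc1d17 (0.91), Apoh (0.90), Ccnl2 (0.90), Tmem43 (0.90), Mia2 (0.89), Mpp5 (0.89), Gna12 (0.89) and Sectm1b (0.89). They are the 10 highest of all other tested genes ranked over 10 arrays and were chosen for these values, which carry no test. For comparison, single endothelial genes had r between -0.39 (Cdh5) and 0.83 (Emcn) with the mean of the other 9. Genes of the vessel lists had r between -0.77 (Rgs5) and 0.88 (Pdgfb) with the mean of the 10, the highest lying close below the genes named above.

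The other genes of vessel growth were measured in the same fit. Of 8 tested VEGF family members, co-receptors and related vascular factors, 4 were lower and 4 higher in knockout, 0 passed, and the median log2 difference was -0.02, or -0.13 without both arrays labelled replicate 1. Another 7 with a probe set of their own, among them the angiopoietins Angpt1 and Angpt2, lay below the limit on low signal and were not tested. Vegfa, the VEGF that Kdr and Flt1 bind, had signals of 541.1, 473.7, 477.6, 452.7 and 331.3 on knockout replicates 1 to 5 and of 660.1, 518.6, 445.5, 506.6 and 625.1 on wild type replicates 1 to 5. Its log2 difference was -0.25 ± 0.14 (SE, limma adjusted p = 0.678), with knockout replicate 5 again the lowest array. Aplnr, the apelin receptor, differed by -0.23 ± 0.16 and Angptl4, a secreted inhibitor of lipoprotein lipase, by 0.38 ± 0.30.

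In a broader list of blood endothelial genes the median difference was near 0. How much of each signal came from endothelium was not tested, and Klf4 of this list read 3863 to 6464. Of 24 tested, 14 were lower and 10 higher in knockout, with a median of -0.02 and 0 past the threshold. Cav1 (caveolin 1), a coat protein of membrane pits, differed by 0.23 ± 0.11 (SE), Ephb4, a receptor of veins, by 0.18 ± 0.12 and Aqp1, a water channel, by 0.26 ± 0.19. Plvap, which forms the diaphragms of the fenestrated capillaries of the villus, had a mean signal of 516 in knockout and 535 in wild type, and differed by -0.10 ± 0.22. The mean of the 24 genes had r = 0.72 with the mean of the 10 over the 10 arrays, and 0.77 on deviations from group means. Without both arrays labelled replicate 1 the median of the 24 genes was -0.09. The 13 others with a probe set, such as Vwf and Icam2, were below the limit on low signal.

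Of 5 tested Notch pathway genes listed for vessels, 2 were lower and 3 higher with a median of 0.09 (0.06 without both arrays labelled replicate 1). RNA of whole tissue does not tell which cells their signals came from. Hes1 differed by 0.23 ± 0.14 (SE), Jag2 by 0.15 ± 0.12 and Dll4, a ligand of arteries and sprouting tips, by -0.31 ± 0.19. The Dll4 signal was 268 on knockout replicate 1 and 122 to 158 on the other knockout arrays, against 143 to 312 in wild type. Of 5 leukocyte adhesion molecules of endothelium with a probe set, Sele, Selp and Icam1 lay below the limit on low signal and were not tested. The 2 tested were lower, Vcam1 by -0.24 ± 0.11 and Madcam1, which homes lymphocytes to the gut, by -0.17 ± 0.11 (limma adjusted p = 0.625 and 0.725). Their median was -0.20, or -0.18 without both arrays labelled replicate 1.

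Markers of the other cells of the gut wall were read on the same arrays. All 7 leukocyte markers were lower in knockout (median -0.18), with summed signals of 2610 to 3579 in knockout and 3048 to 3809 in wild type. All 7 smooth muscle markers were higher (median 0.40; summed 18632 to 28583 in knockout and 14131 to 23858 in wild type), as were all 6 fat cell markers (median 0.57; 2575 to 5391 in knockout and 1144 to 5067 in wild type). Of 7 epithelial markers 5 were lower (median -0.09; summed 59867 to 70557 in knockout and 56870 to 77838 in wild type). Without both arrays labelled replicate 1 these medians were -0.17, 0.20, 0.65 and -0.07. None of these genes passed the threshold, and the part of these cells in the endothelial values was not tested.

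**Figure D4:**
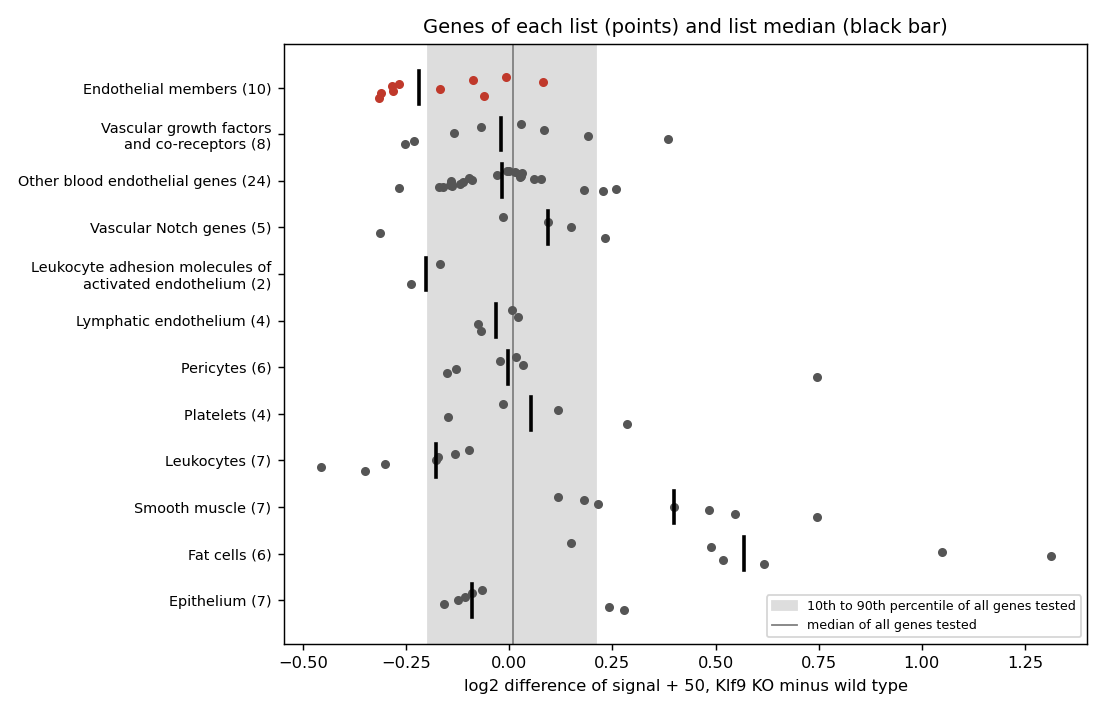
Log2 difference of signal plus 50, Klf9 knockout minus wild type, for the genes of each list (points, brightest probe set, number of genes tested in brackets) with the list median as a black bar. The grey band spans the 10th to the 90th percentile of all genes tested (-0.20 to 0.21) and the grey line is their median (0.01). The endothelial genes in red have a median of -0.22. The 24 genes of the broader blood endothelial list, whose cell source was not tested, have one of -0.02.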

How the data were processed

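RNA of 10 jejunum samples was hybridised to 1 array each. Per the series' design text and the values, the authors deposited linear signal intensity per probe set, quantified with MAS 5.0 and scaled on each array to a 2% trimmed mean near 500. The other deposited files hold instrument settings, from which only fluidics module and hybridization time were read. Wash runs, a name given here, were inferred from gaps over 30 minutes between these times. Arrays were rescaled to a trimmed mean of exactly 500, and log2(signal + 50) was taken, so that a log2 difference understates changes of dim probe sets.

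Gene names come from the platform annotation (20380 probe sets with 1 symbol, 691 with several, 1555 with none), and 20351 found a RefSeq entry through their gene ID. The 64 control probe sets were left out, and probe sets with a mean above the 40th percentile (123), with the 17 endothelial ones always kept, were tested. Groups were compared with limma 3.58.1 (lmFit, eBayes with trend; R 4.3.3), two-sided, with Benjamini-Hochberg adjustment over 13583 probe sets and a threshold of 0.05. The step was tested on simulated data. The brightest tested probe set stood for a gene. Correlations used 100000 resamples. The genes named are the members, the 10 genes most like their mean, and up to 3 of lowest p per list. A few others (Plvap, Pdgfb, Rgs5 and Klf4, with Vwf, Icam2, Angpt1 and Angpt2) were named after their values were seen. Members and lists were chosen with earlier results of these data known. Alternatives were other offsets, filters, scalings, eBayes settings, blocks and left-out arrays.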

Additional observations from a re-analysis of the deposited data

Results flagged for a closer look

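Among 34 groups of 5 arrays (17 probe sets in each genotype), 3 had 1 array far from the other 4 by Dixon's criterion, where chance gives about 1 in 20. The brightest Flt1 probe set read 186 on wild type replicate 2, with the other wild type arrays between 64.2 and 90.4. The dim Eng probe set 1432176_a_at read 70.5 on wild type replicate 1, with the others between 16.5 and 26.1. The Egfl7 probe set 1451427_a_at read 97.6 on wild type replicate 2, with the others between 228 and 307, while the other endothelial genes were above their means on that array on their brightest probe sets.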

How the results depend on the processing

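No endothelial probe set passed under any of 25 alternatives, the lowest adjusted p among them being 0.395 (limma, without both arrays labelled replicate 1). Over all probe sets, 0 to 5 passed when 1 array was left out (5 without knockout replicate 1, 3 without knockout replicate 5, 1 without wild type replicate 1), 3 with array weights and 9 without both arrays labelled replicate 1. The number with an unadjusted p under 0.05 was 812 to 1352 without single arrays, 1624 without a filter and 472 with the fluidics module as a block. The median over the endothelial genes was negative under every alternative, from -0.33 with the module as a block to -0.12 with the 60th percentile filter. That filter left only Kdr and Esam, 1 of them lower. The module block repeats the comparison within module 4 (1 knockout and 2 wild type arrays), as no other module holds both labels. Without single arrays the median ran from -0.28 to -0.16, with 7 to 9 genes lower. Kdr, Emcn, Tek, Pecam1 and Tie1 kept their direction wherever they were fitted. Egfl7 turned to 0.015 with quantile and 0.0039 with cyclic loess normalization, Cdh5 to 0.10 and Esam to -0.15 with the module as a block, and Esam to -0.00060 without both arrays labelled replicate 1. Without single arrays Flt1 ran from -0.30 to 0.12, Eng from -0.18 to 0.0064, Egfl7 from -0.065 to 0.045 and Esam from 0.026 to 0.127, and without both arrays labelled replicate 1 Flt1 was -0.316. The cause was not tested. The median correlation over the 45 pairs was 0.18 with quantile normalization and 0.080 without the 2 farthest arrays of each pair. Replicate numbers pair nothing by the labels, but arrays of the same number always shared a wash run. Same-numbered arrays had r of -0.12 to 0.28 in their deviations from group means. Of 5 knockout arrays, 3 were closest to the wild type array of their own number. Under the replicate block the counts were 0 (adjusted) and 1235 (unadjusted). The endothelial median was again -0.22, as blocks with 1 array of each label cannot change a log2 difference. Values near the 50 added, as for Tie1 and Tek, limit what these arrays can show.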

Other observations

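Other cells of the vessels and the blood were also read. Of 4 tested genes of lymphatic endothelium, 2 were lower and 2 higher in knockout with a median log2 difference of -0.03, and Lyve1, a hyaluronan receptor, and Reln (reelin) differed by -0.08 ± 0.18 and -0.07 ± 0.12 (SE). Of 6 pericyte genes, 3 were lower and 3 higher with a median of -0.0035. Des (desmin), which smooth muscle also holds, differed by 0.75 ± 0.21 (adjusted p = 0.466), more than any endothelial gene, Notch3 by -0.15 ± 0.11 and Pdgfrb by -0.13 ± 0.14. Of 4 platelet genes, 2 were lower and 2 higher with a median of 0.05, Gp1bb at 0.28 ± 0.15, Gp5 at -0.15 ± 0.12 and Itga2b at 0.12 ± 0.15. Without both arrays labelled replicate 1 the medians of the lymphatic, pericyte and platelet lists were -0.05, -0.06 and 0.03. None of these genes passed the threshold of limma over all probe sets. The 5 red blood cell genes with a probe set of their own all lay below the limit on low signal.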
